A study of Mus musculus with 28 samples.

Results

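The comparison described here sets samples labelled host dendritic cells of the graft medulla against samples labelled dendritic cells of the steady-state medulla. It covers 7 of the 28 arrays of the study. Dendritic cells, which take up antigen and present it to T cells, had been sorted from digested mouse kidneys by their surface CD45, CD11c and MHC class II. The 3 host arrays hold cells labelled C57BL/6 that were sorted by the CD45.1 form of CD45 from the medulla, the inner kidney, of renal allografts at day 3 after transplantation. They came from 3 grafts, which also gave the donor cells (labelled BALB/c, CD45.2) and the host cells of the cortex, the outer kidney. The 4 homeostatic arrays hold medullary cells of 4 C57BL/6 mice in the steady state. Each array is 1 mouse, and the arrays were chosen by their titles alone. Day 3 in a graft, the strain of the surrounding kidney and the CD45 form used in the sort all differ between the groups and cannot be told apart, and an isograft was not analysed here. The labels give no age or sex.

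The healthy kidney holds a network of resident mononuclear phagocytes that share CD11c and MHC class II, so that cells with macrophage genes and cells with dendritic cell genes fall in the same sort gate. After transplantation these donor cells are progressively replaced by host cells that arrive with the blood, mostly as monocytes and dendritic cell precursors. The medulla differs from the cortex in its tubules (thin limbs, thick ascending limbs and collecting ducts) and in the high salt and urea of its tissue, to which cells respond through the transcription factor NFAT5.

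Values are log2 array signal, on which a difference of 1 is a 2-fold difference, and differences are host minus homeostatic with the standard error of limma. A gene passed when its p-value, adjusted over the 14346 genes tested, was under 0.05. Array medians lay between 7.602 and 7.882, and levels near or below them are dim, so that a fall that ends there can be understated. The host arrays correlated with their own group at 0.896 to 0.915, and the homeostatic ones at 0.940 to 0.947. Homeostatic BALB/c medulla replicate 1 stood apart from its group at 0.788. Its group mean enters only the comparison with donor cells below. All 28 arrays share 1 estimate of the spread, so this array also bears on the errors of every comparison.

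Transcripts of the proteins used for the sort were lower in host cells. Ptprc, which encodes CD45, was at 10.93, 9.11 and 8.97 in host cells, against 12.82, 12.75, 12.84 and 12.77 in homeostatic cells (-3.12 ± 0.40, adjusted p = 9.9e-06). Itgax, the gene of CD11c, was at 7.52, 7.29 and 8.16 in host cells, against 10.89, 11.16, 10.95 and 11.36 in homeostatic cells (-3.43 ± 0.56, adjusted p = 0.00017). H2-Ab1, the beta chain of the MHC class II molecule I-A, was at 10.92, 8.87 and 8.84 in host cells, against 13.28, 13.14, 13.27 and 13.27 in homeostatic cells (-3.70 ± 0.40, adjusted p = 8.6e-07). No host array reached the lowest homeostatic array for any of these 3 genes, and host replicate 1 was above the other 2 host arrays for Ptprc and H2-Ab1. Of 26 leukocyte-wide genes, 22 fell and none rose (median -2.61, against 0.07 over all genes), where 5.21% of all genes fell. Their mean was 9.22, 8.25 and 8.56 in host cells, against 11.32, 11.25, 11.22 and 11.30 in homeostatic cells. Of 18 epithelium-wide genes, 16 rose and none fell (median 2.33), where 6.27% of all genes rose, and their mean was 10.23, 10.24 and 9.87 in host cells, against 8.14, 7.94, 7.87 and 7.85 in homeostatic cells. Both lists moved with the comparison, and their part in each result below was not tested apart from the scaling to leukocyte-wide genes given further on. On each host array the epithelium-wide mean was above the leukocyte-wide mean, the reverse of the homeostatic arrays. In these bulk samples, fewer cells of a type and less RNA per cell cannot be told apart. Levels given below for host, donor or homeostatic cells are those of the whole sorted sample, named by its label. Which cells of a sample held a transcript was not tested.

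**Figure D1:**
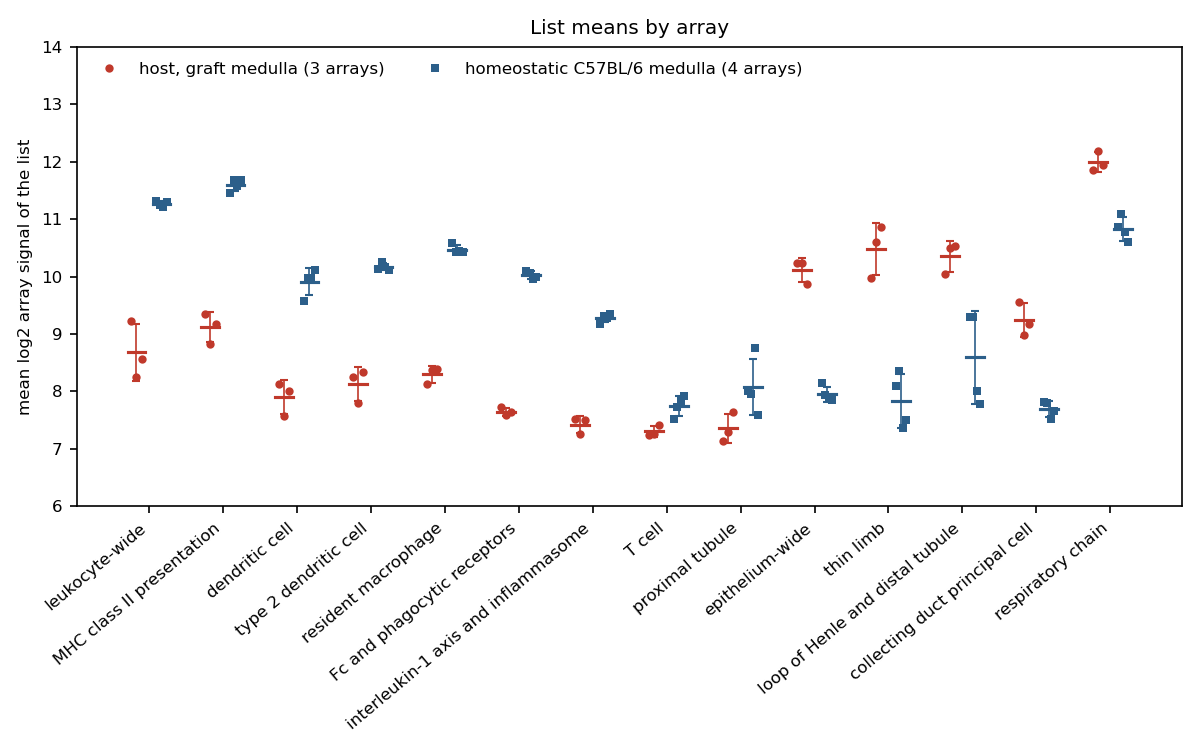
Mean log2 array signal of 14 gene lists on each of the 3 host arrays (red circles) and the 4 homeostatic C57BL/6 arrays (blue squares) of the medulla, with group means (bars) and SD (whiskers). The leukocyte, antigen presentation, dendritic cell and macrophage lists are lower on all 3 host arrays, the lists of epithelium, thin limb, loop, principal cell and respiratory chain are higher, the T cell list is slightly lower, and the proximal tubule list overlaps.

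In all, 1647 of 14346 genes (11.5%) passed, 899 higher (6.27%) and 748 lower (5.21%). The counts of each list below are to be read against these shares. Differences of 2 or more were reached by 332 of the higher and 387 of the lower genes. All host arrays lay above all homeostatic arrays for 2055 genes (14.3%) and below them for 1430 (9.97%). With any one of the 7 arrays left out, 1206 to 1482 genes passed.

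Genes of antigen presentation by MHC class II fell, with 1 exception. Of 12 genes of this pathway, 11 fell and Marchf1, a ubiquitin ligase that removes MHC class II from the surface, did not pass (-0.54 ± 0.22, adjusted p = 0.13), for a median of -2.36. Cd74, the invariant chain that escorts MHC class II to the endosome, was at 8.83, 8.20 and 9.46 in host cells, against 12.89, 12.85, 12.85 and 12.85 in homeostatic cells (-4.03 ± 0.33, adjusted p = 2e-08). Ctss, the protease cathepsin S that degrades that chain, was at 10.49, 9.01 and 9.13 in host cells, against 13.19, 13.18, 13.33 and 13.37 in homeostatic cells (-3.73 ± 0.34, adjusted p = 9.3e-08). H2-DMa, a subunit of the peptide exchange factor H2-M, was at 10.30, 8.26 and 7.57 in host cells, against 11.93, 12.23, 12.23 and 12.20 in homeostatic cells (-3.44 ± 0.51, adjusted p = 6.1e-05). Host replicate 1 was the highest of the 3 for Ctss and H2-DMa but not for Cd74, and every host array lay below every homeostatic array for all 3. Smaller differences were seen for the class II chains H2-Aa and H2-Eb1. H2-Aa was at 11.11, 10.45 and 11.21 in host cells, against 12.99, 12.99, 12.93 and 12.95 in homeostatic cells. H2-Eb1 was at 10.25 ± 0.30 in host cells (SD, n = 3) and 12.91 ± 0.08 in homeostatic cells (SD, n = 4). The differences were -2.04 ± 0.28, adjusted p = 2.5e-05 for H2-Aa and -2.66 ± 0.18, adjusted p = 1.6e-09 for H2-Eb1. Ciita, the master regulator of class II transcription, differed by -2.07 ± 0.29, adjusted p = 3e-05.

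MHC class II promoters share an X box and a Y box, to which a complex assembles that recruits the Ciita protein. The promoters of H2-Aa and H2-Eb1, 2 class II chains that fell, are shown to let the shared element be seen (RefSeq, GRCm38.p6, 250 bases before to 50 after the start). The Y box motif searched, CTGATTGG on both strands, is in capitals. It begins at base -51 from the start in H2-Aa (chr17:34287774-34288073, minus strand) and at base -62 in H2-Eb1 (chr17:34305617-34305916, plus strand).
H2-Aa: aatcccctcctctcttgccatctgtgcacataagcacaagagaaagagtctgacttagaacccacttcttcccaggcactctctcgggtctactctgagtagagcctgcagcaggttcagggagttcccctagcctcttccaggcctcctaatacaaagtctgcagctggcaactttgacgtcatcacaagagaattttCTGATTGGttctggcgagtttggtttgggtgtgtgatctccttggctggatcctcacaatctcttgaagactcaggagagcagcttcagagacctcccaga
H2-Eb1: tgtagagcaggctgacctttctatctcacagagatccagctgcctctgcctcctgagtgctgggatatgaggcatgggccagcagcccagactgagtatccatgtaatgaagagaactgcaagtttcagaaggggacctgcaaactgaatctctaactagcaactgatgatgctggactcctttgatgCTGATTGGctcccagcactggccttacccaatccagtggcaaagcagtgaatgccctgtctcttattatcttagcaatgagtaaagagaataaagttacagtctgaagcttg
Of the 12 class II genes, 9 had at least 1 promoter in the RefSeq table, and 3 of their 13 promoters (23.1%) held CTGATTGG, against 4.1% of all 32851 promoters. The third was that of H2-Oa. The motif was not particular to class II genes, since 3 of 16 promoters of the interferon-gamma response list (18.8%) held it, those of Cxcl9, Cxcl10 and Irf8. None of the leukocyte-wide, resident macrophage, osmolyte or thin limb promoters did. Of the leukocyte-wide genes, 21 had a promoter, and 5 of their 28 promoters (17.9%) held GAGGAAGT, a motif bound by the myeloid factor PU.1, against 3.2% of all promoters. These matches describe the sequences only.

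Of 20 resident macrophage genes tested, 11 fell and none rose (median -2.32), and the list mean was 8.13, 8.37 and 8.39 in host cells, against 10.58, 10.43, 10.44 and 10.42 in homeostatic cells. Mrc1, the mannose receptor CD206, was at 6.72, 7.12 and 6.65 in host cells, against 12.60, 12.21, 12.25 and 12.14 in homeostatic cells (-5.47 ± 0.35, adjusted p = 5.8e-10). Adgre1, an adhesion receptor that marks mouse macrophages, was at 6.48, 7.95 and 6.26 in host cells, against 12.29, 12.20, 12.37 and 12.30 in homeostatic cells (-5.39 ± 0.41, adjusted p = 5.4e-09). C1qc, a chain of the complement recognition protein C1q, was at 8.46 ± 0.39 in host cells (SD, n = 3) and 12.86 ± 0.16 in homeostatic cells (SD, n = 4), a difference by limma of -4.40 ± 0.25, adjusted p = 6.6e-11. The groups were far apart for all 3 genes, and in Mrc1 and Adgre1 the host arrays lay at or near the array medians or below them. Csf1r, the receptor of the macrophage growth factor M-CSF, differed by -2.98 ± 0.25, adjusted p = 3.4e-08, Cx3cr1, the fractalkine receptor, by -3.76 ± 0.29, adjusted p = 9.5e-09, and Apoe, a lipid carrier of macrophages, by -2.38 ± 0.21, adjusted p = 6e-08. The list was not lower as a whole, since 9 genes did not pass, among them Cd81, a tetraspanin that other cells express too (-0.02 ± 0.24, adjusted p = 0.98), and Maf, a macrophage transcription factor (-0.35 ± 0.23, adjusted p = 0.43). Gas6, a ligand of phagocytic receptors, was higher on all host arrays without passing (1.40 ± 0.59, adjusted p = 0.15).

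**Figure D2:**
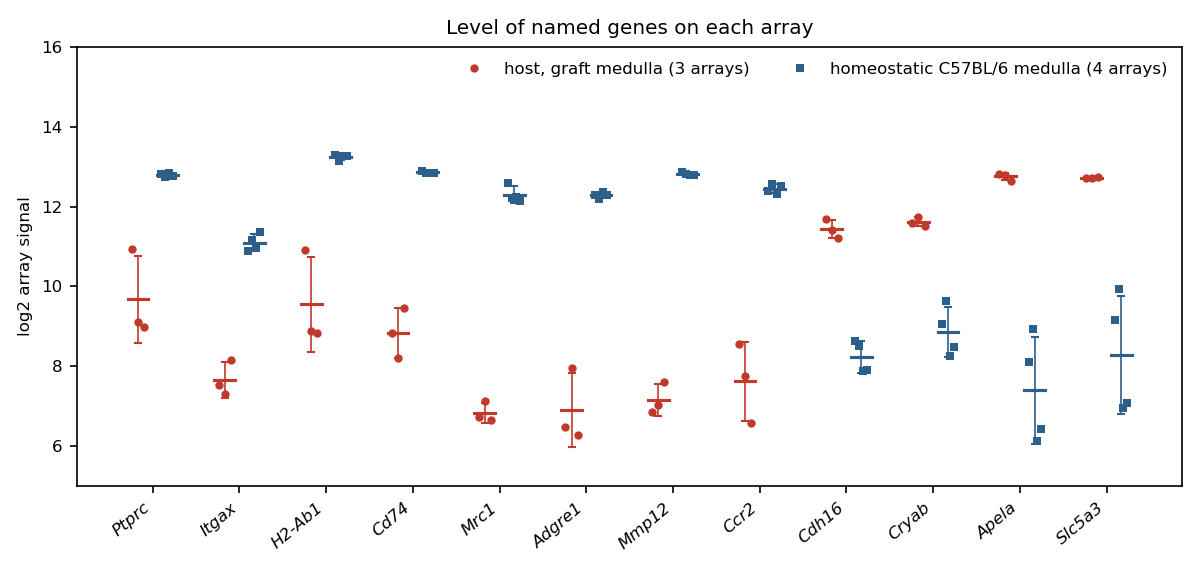
Log2 array signal of 12 genes on each of the 3 host arrays (red circles) and the 4 homeostatic arrays (blue squares) of the medulla, with means (bars) and SD (whiskers). Host arrays lie below all homeostatic arrays for the 3 sort genes, Cd74, Mrc1, Adgre1, Mmp12 and Ccr2, and above them for Cdh16, Cryab, Apela and Slc5a3, where the homeostatic arrays spread widely for the last 2.

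Other surface and secreted products of macrophages were among the largest falls. Fc and phagocytic receptors fell in 13 of 19 genes (median -2.49), including Fcgr4, a receptor for IgG (-4.80 ± 0.78, adjusted p = 0.00016), the scavenger receptor Cd36 (-4.86 ± 0.42, adjusted p = 3.9e-08) and the endosomal protein Cd68 (-3.37 ± 0.64, adjusted p = 0.00083). Complement genes were divided, with 7 of 16 lower and 1 higher (median -0.25, and -1.81 under the stricter filter on dim genes, which tests fewer members). C3ar1, the receptor of the fragment C3a, was at 6.84, 6.68 and 8.03 in host cells, against 12.78, 12.65, 12.53 and 12.53 in homeostatic cells (-5.44 ± 0.29, adjusted p = 2.7e-11). C5ar1, the receptor of C5a, was at 6.84, 6.60 and 6.58 in host cells, against 11.64, 11.62, 11.63 and 10.98 in homeostatic cells (-4.79 ± 0.46, adjusted p = 1.6e-07). The groups were far apart for both receptors, and homeostatic replicate 4 was lower than the rest of its group for C5ar1. The complement gene that rose was Clu, which encodes the secreted chaperone clusterin and is described with the tubule genes. Mmp12, macrophage elastase, was at 6.84, 7.02 and 7.61 in host cells, against 12.87, 12.81, 12.78 and 12.79 in homeostatic cells (-5.65 ± 0.45, adjusted p = 1.1e-08). Mmp13, a collagenase, was at 6.85, 6.75 and 7.42 in host cells, against 12.82, 12.84, 12.70 and 12.67 in homeostatic cells (-5.75 ± 0.41, adjusted p = 2.2e-09). Both metalloproteases are among the brightest genes of the homeostatic cells and are dim on every host array.

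Of the genes ranked, which passed without overlap of the groups, the lowest difference was that of Clec4b1, a C-type lectin of myeloid cells. It was at 4.76, 5.25 and 4.94 in host cells, against 11.14, 11.96, 11.39 and 11.45 in homeostatic cells (-6.50 ± 1.06, adjusted p = 0.00018). Further lectins, inhibitory receptors and signalling proteins of myeloid cells followed, with differences of -5.76 ± 0.56 for Klra2, -5.68 ± 0.77 for Clec4a3, -5.44 ± 0.46 for Lilr4b and -5.86 ± 0.62 for Stap1. Ms4a7, a tetraspan protein of macrophages, differed by -5.49 ± 0.45, adjusted p = 1.9e-08, and Gpr65, a receptor that senses protons, by -5.18 ± 0.49, adjusted p = 1.5e-07. Gatm, which makes the creatine precursor guanidinoacetate and is usually a gene of the proximal tubule, was at 6.35, 5.97 and 5.87 in host cells, against 11.99, 11.97, 11.74 and 11.89 in homeostatic cells (-5.83 ± 0.31, adjusted p = 2.7e-11). Its homeostatic arrays differed little. Slc27a2, 1 other proximal tubule gene, was at 7.85, 9.84 and 11.91 in host cells, against 8.22, 8.89, 11.26 and 7.63 in homeostatic cells. Which cells either transcript came from was not tested.

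Genes of conventional dendritic cells were also lower, with 9 of 11 general dendritic cell genes falling and none rising (median -1.82). Kmo, an enzyme of tryptophan breakdown, was at 7.79, 6.47 and 6.48 in host cells, against 11.43, 11.36, 10.65 and 11.64 in homeostatic cells (-4.36 ± 0.52, adjusted p = 3.7e-06). Flt3, the receptor of the dendritic cell growth factor, was at 8.23, 7.11 and 8.26 in host cells, against 9.37, 10.69, 10.28 and 10.05 in homeostatic cells (-2.23 ± 0.59, adjusted p = 0.013), a call lost without host medulla replicate 2 (adjusted p = 0.092). Of genes of type 2 dendritic cells, 6 of 10 fell (median -2.72). Mgl2, a galactose lectin, was at 5.72, 5.75 and 6.25 in host cells, against 10.70, 10.88, 11.64 and 10.59 in homeostatic cells (-5.05 ± 0.53, adjusted p = 6.3e-07), and the integrin Itgam (CD11b) differed by -3.21 ± 0.30, adjusted p = 1e-07. Tmem176a and Tmem176b, ion channels of the same cells, did not pass (0.03 ± 0.29, adjusted p = 0.98 and -0.38 ± 0.19, adjusted p = 0.25). Among type 1 dendritic cell genes, 5 of 13 fell (median -1.04). Clec9a, a receptor for dead cells, was at 9.28, 6.25 and 6.77 in host cells, against 12.62, 11.82, 12.40 and 12.24 in homeostatic cells (-4.84 ± 0.91, adjusted p = 0.00079), so that 1 host array stood well above the other 2. Irf8, the transcription factor of this lineage, was below every homeostatic array without passing (-1.04 ± 0.48, adjusted p = 0.2).

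Costimulatory and maturation genes fell in 11 of 25 and rose in none (median -0.64, and -1.42 under the stricter filter on dim genes). Cd86, a ligand of CD28 on T cells, was at 6.08, 6.18 and 6.34 in host cells, against 12.35, 11.89, 11.53 and 11.87 in homeostatic cells (-5.71 ± 0.55, adjusted p = 1.5e-07). Havcr2, the checkpoint receptor TIM-3, differed by -3.58 ± 0.60, adjusted p = 0.00023, and Cd83, a marker of maturation, by -2.33 ± 0.57, adjusted p = 0.0077. Cd86 was dim on all 3 host arrays and well above the array medians on all 4 homeostatic arrays.

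Ccr2, the chemokine receptor by which monocytes leave the marrow, was at 8.55, 7.74 and 6.58 in host cells, against 12.40, 12.57, 12.31 and 12.52 in homeostatic cells (-4.82 ± 0.47, adjusted p = 2e-07). Of 10 monocyte genes, 3 fell and 1 rose, the last being Mgst1, a glutathione transferase that tubule cells also express (3.08 ± 0.75, adjusted p = 0.007). Of 17 CC and CX3C chemokines, 9 fell (median -0.96, and -1.80 under the stricter filter), led by Ccl3, an inflammatory chemokine of myeloid cells. Ccl3 was at 7.57, 6.67 and 7.37 in host cells, against 13.03, 12.91, 12.38 and 12.99 in homeostatic cells (-5.62 ± 0.75, adjusted p = 1.6e-05). Ccl2, the main ligand of CCR2, differed by -2.42 ± 0.51, adjusted p = 0.0022, and Ccl4 by -2.82 ± 0.32, adjusted p = 1.5e-06. Among 10 CXC chemokines 3 fell, including Pf4 (-3.63 ± 0.70, adjusted p = 0.00097) and Cxcl9, a target of interferon-gamma that is taken up with the cortex below. Of 14 chemokine receptors 4 fell and 1 rose, the scavenging receptor Ackr3 (2.06 ± 0.42, adjusted p = 0.0016). Among all genes 5.21% fell and 6.27% rose, so the share of chemokine receptors that rose was close to that of all genes.

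The interleukin-1 axis fell in 10 of 17 genes and rose in none (median -1.90). Il1b, which encodes interleukin-1 beta, was at 7.81, 7.77 and 8.51 in host cells, against 12.87, 12.25, 12.61 and 12.69 in homeostatic cells (-4.57 ± 0.51, adjusted p = 1.7e-06). Aim2, a sensor of cytosolic DNA, differed by -4.38 ± 0.87, adjusted p = 0.0013, and Nlrp3, the sensor of another inflammasome, by -2.44 ± 0.38, adjusted p = 9.2e-05. Of 16 pattern recognition receptors 8 fell, among them Tlr4, the receptor of endotoxin (-3.50 ± 0.64, adjusted p = 0.00056), and Clec7a, the beta-glucan receptor dectin-1 (-3.25 ± 0.34, adjusted p = 6.6e-07). Of the genes of eicosanoid synthesis 5 of 15 fell, with Alox5ap, the activator of 5-lipoxygenase (-3.76 ± 0.51, adjusted p = 1.9e-05), and Hpgds, a prostaglandin D synthase (-4.61 ± 0.69, adjusted p = 7.2e-05), among them, and 1 rose. Receptors for growth factors and cytokines fell in 9 of 19 genes, such as Il10ra, a chain of the interleukin-10 receptor (-3.78 ± 0.40, adjusted p = 7.8e-07).

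Interferon genes were less uniform. Of 15 interferon-gamma response genes 4 fell and none rose (median -0.87), and of 23 type I interferon genes 7 fell and none rose (median -0.91). The receptor chain Ifnar2 was at 10.12, 10.16 and 7.55 in host cells, against 12.88, 12.78, 12.83 and 12.80 in homeostatic cells (-3.55 ± 0.39, adjusted p = 1.5e-06), with host replicate 3 the lowest. The interferon-gamma receptor chain Ifngr1 differed by -2.48 ± 0.54, adjusted p = 0.0027, and Zbp1, a sensor of nucleic acids in Z form, by -1.92 ± 0.39, adjusted p = 0.0015. Ifit2, an antiviral gene, was at 12.21, 12.17 and 11.22 in host cells, against 10.76, 10.53, 10.87 and 11.34 in homeostatic cells, and did not pass (1.00 ± 0.59, adjusted p = 0.37). Iigp1, a GTPase induced by interferon-gamma, was at 11.58, 10.94 and 9.21 in host cells, against 9.94, 10.04, 10.15 and 9.62 in homeostatic cells, and did not pass (0.64 ± 0.56, adjusted p = 0.61). In both genes host replicates 1 and 2 lay above every homeostatic array and host replicate 3 did not. MHC class I presentation fell in 5 of 14 genes by smaller amounts (median -0.54). The light chain B2m was at 13.14, 12.93 and 12.90 in host cells, against 13.60, 13.44, 13.55 and 13.52 in homeostatic cells (-0.54 ± 0.12, adjusted p = 0.0027), and the peptide transporter subunit Tap1 differed by -1.80 ± 0.36, adjusted p = 0.0015.

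Of 11 T cell genes none passed (median -0.23, and -0.34 to -0.10 over 17 alternatives), and the list mean was 7.24, 7.25 and 7.41 in host cells, against 7.51, 7.73, 7.83 and 7.91 in homeostatic cells. Genes of plasmacytoid dendritic cells did not pass in any of 10, platelet genes in any of 4 or erythroid genes in any of 3. Of 7 neutrophil genes 1 fell, Il1r2, a decoy receptor of interleukin-1 (-2.91 ± 0.49, adjusted p = 0.00024), and of 9 B cell genes 3 fell, against 5.21% of all genes. Of 8 natural killer cell genes only Klrd1, which encodes CD94, passed, and its groups overlapped, at 11.29, 5.84 and 6.50 in host cells, against 11.37, 12.09, 11.02 and 11.19 in homeostatic cells (-3.54 ± 0.94, adjusted p = 0.013). That call was lost without host medulla replicate 2 or host medulla replicate 3 (adjusted p up to 0.13). Cell cycle genes passed in 3 of 26, all lower, including the cyclin Ccnd2 (-2.17 ± 0.48, adjusted p = 0.0033). Of all genes 11.5% passed, so the share of cell cycle genes that passed was close to that of all genes.

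Transcripts of medullary tubules were higher on the host arrays. All 9 thin limb genes tested rose (median 2.39), with a list mean of 9.98, 10.61 and 10.86 in host cells, against 8.09, 8.35, 7.36 and 7.50 in homeostatic cells. Aqp1, the water channel of the descending limb, was at 11.53, 11.94 and 11.86 in host cells, against 8.34, 9.05, 7.78 and 7.74 in homeostatic cells (3.55 ± 0.47, adjusted p = 1.6e-05). Cryab, a small heat shock protein of the inner medulla, was at 11.58, 11.74 and 11.52 in host cells, against 9.06, 9.64, 8.25 and 8.48 in homeostatic cells (2.76 ± 0.43, adjusted p = 9.8e-05). Bst1, the ADP-ribosyl cyclase CD157, was at 11.77, 11.33 and 12.25 in host cells, against 7.36, 8.54, 6.64 and 7.02 in homeostatic cells (4.40 ± 0.57, adjusted p = 1.2e-05). Homeostatic replicates 1 and 2 were the higher ones of their group for these 3 genes, and no array of either group crossed into the other. Of the general epithelial genes, Cdh16, kidney cadherin, was at 11.68, 11.42 and 11.21 in host cells, against 8.64, 8.49, 7.87 and 7.91 in homeostatic cells (3.21 ± 0.42, adjusted p = 1.3e-05), and Krt8, a keratin, differed by 2.88 ± 0.40, adjusted p = 2.6e-05.

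Of 18 genes of the loop of Henle and distal tubule, 9 rose and 1 fell (median 2.13). The potassium channel Kcnj1 (ROMK) was at 13.12, 13.05 and 12.84 in host cells, against 11.17, 11.02, 7.63 and 7.42 in homeostatic cells (3.69 ± 0.89, adjusted p = 0.0065). The call of Kcnj1 was lost with the 2 groups compared alone (adjusted p by limma = 0.068) and with the replicate number as a block (0.13). Umod, uromodulin of the thick ascending limb, was at 13.47, 13.62 and 13.44 in host cells, against 12.67, 12.76, 9.64 and 8.13 in homeostatic cells and did not pass (2.71 ± 1.16, adjusted p = 0.16). In both genes homeostatic replicates 1 and 2 were far above replicates 3 and 4. The range within that group was about as wide as the difference for Kcnj1 and wider than it for Umod, although every host array was the higher. Wnk1, a kinase that leukocytes express too, was the gene that fell (-1.04 ± 0.25, adjusted p = 0.0068).

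Among 15 principal cell genes of the collecting duct 8 rose and 1 fell (median 1.48). Apela, a peptide hormone, was at 12.82, 12.79 and 12.65 in host cells, against 8.11, 8.92, 6.13 and 6.41 in homeostatic cells (5.36 ± 1.10, adjusted p = 0.0017). Npnt, an integrin ligand of the basement membrane, was at 11.76, 11.10 and 11.72 in host cells, against 7.70, 7.91, 7.99 and 7.81 in homeostatic cells (3.67 ± 0.26, adjusted p = 1.9e-09). Scnn1a, a subunit of the epithelial sodium channel, differed by 2.83 ± 0.58, adjusted p = 0.0016. Genes of the intercalated cell rose in 3 of 14, with Atp6v1g3, a subunit of the proton pump, at 3.69 ± 0.61, adjusted p = 0.00019. The urothelial antigen Psca was the one of 7 urothelial genes that rose (4.21 ± 0.65, adjusted p = 9e-05), where 6.27% of all genes rose. Proximal tubule genes did not follow, since 2 of 18 fell and none rose (median -0.16), the pair being Gatm and Kap, an androgen-regulated gene whose homeostatic arrays ran from 8.42 to 12.85 (-4.41 ± 0.83, adjusted p = 0.00079). Endothelial genes rose in 2 of 17, where 6.27% of all genes rose, and fibroblast genes passed in none of 12 and podocyte genes in none of 5.

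**Figure D3:**
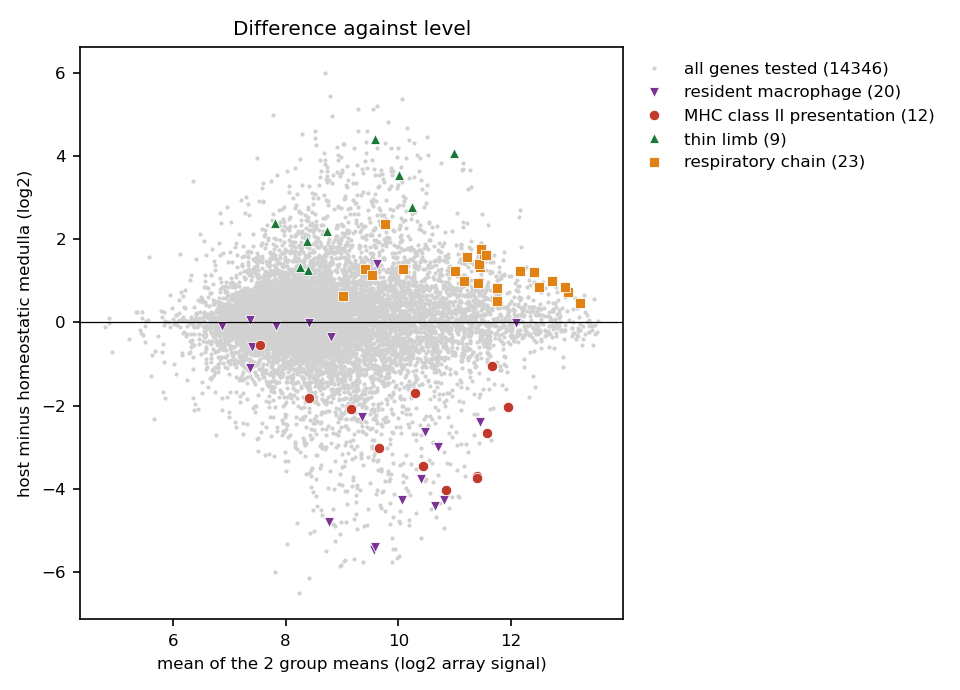
Host minus homeostatic difference of each of 14346 genes (vertical axis, log2) against the mean of both group means (horizontal axis, log2 array signal), with 4 lists coloured. Macrophage and MHC class II genes lie below or near 0, down to Mrc1 at -5.47, except Gas6 at 1.40. All thin limb genes, up to Bst1 at 4.40, and all respiratory chain genes lie above 0.

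The osmolyte list, which joins NFAT5 targets and genes of the urea and water pathway, held 4 genes of 13 that rose and 2 that fell (median 0.31, and 0.48 under the stricter filter or without host replicate 1). Slc5a3, the inositol transporter and a target of NFAT5, was at 12.71, 12.72 and 12.75 in host cells, against 9.15, 9.92, 6.96 and 7.08 in homeostatic cells (4.45 ± 0.96, adjusted p = 0.0026). The 3 host arrays were nearly equal while the homeostatic arrays were spread widely, with replicates 1 and 2 again the higher. Aqp2 and Slc14a2, the water channel and urea transporter of the collecting duct and inner medulla, differed by 1.62 ± 0.37, adjusted p = 0.0039 and 1.34 ± 0.20, adjusted p = 5.7e-05. S100a4, a calcium-binding protein, and Nfatc1, the calcineurin-regulated relative of NFAT5, were the 2 that fell (-3.02 ± 0.71, adjusted p = 0.0054 and -1.44 ± 0.27, adjusted p = 0.00083). The list therefore did not move in 1 direction. Of its 10 genes with a promoter in the RefSeq table, 4 had one that held the core NFAT5 motif TGGAAA (28.6% of 21 promoters, against 21.4% of all promoters). The motif was not particular to this list. It was in 35.3% of 17 resident macrophage promoters, 25.0% of 16 interferon-gamma response promoters and 17.9% of 28 leukocyte-wide promoters. Of 13 MHC class II promoters 15.4% held it, and of 5 thin limb promoters none did.

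Of 23 respiratory chain genes 11 rose and none fell (median 1.20), where 6.27% of all genes rose. All host arrays lay above all homeostatic ones in 20 of the 23, against 14.3% of all genes. Ndufv1, a subunit of complex I, was at 10.54, 11.43 and 10.87 in host cells, against 8.03, 9.50, 8.58 and 8.25 in homeostatic cells (2.36 ± 0.51, adjusted p = 0.0025), and Sdhc, of complex II, differed by 1.41 ± 0.32, adjusted p = 0.0042. Hypoxia and glycolysis genes rose in 6 of 20 (median 0.59). Hk1, hexokinase, was at 10.53, 10.53 and 9.89 in host cells, against 7.94, 8.34, 7.79 and 7.55 in homeostatic cells (2.41 ± 0.37, adjusted p = 9.5e-05), and Pfkl, a phosphofructokinase, differed by 1.75 ± 0.20, adjusted p = 1.8e-06. Ppargc1a, the coactivator of mitochondrial biogenesis, was at 12.25, 12.46 and 12.41 in host cells, against 8.86, 9.67, 6.98 and 6.48 in homeostatic cells (4.38 ± 0.94, adjusted p = 0.0026).

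Genes known from tubular injury rose in 6 of 20 and fell in 3, where 6.27% of all genes rose and 5.21% fell. Lcn2, which encodes the injury marker NGAL, was at 11.07, 10.37 and 10.73 in host cells, against 7.20, 7.07, 7.04 and 7.11 in homeostatic cells (3.61 ± 0.32, adjusted p = 6.7e-08). Clu was at 12.74, 12.25 and 10.13 in host cells, against 7.63, 7.68, 7.19 and 7.60 in homeostatic cells (4.18 ± 0.55, adjusted p = 1.4e-05). Itgb6, the epithelial integrin chain that activates TGF-beta, differed by 3.91 ± 0.65, adjusted p = 0.00021. Unlike the thick limb genes, Lcn2 and Clu were dim on all 4 homeostatic arrays. Of 17 genes of coagulation and matrix turnover, 4 rose and 3 fell. Timp3, an inhibitor of metalloproteases (2.68 ± 0.52, adjusted p = 0.001), Plau, urokinase (1.90 ± 0.41, adjusted p = 0.0026), and Thbs1, thrombospondin (1.87 ± 0.36, adjusted p = 0.00087), rose while Timp2 fell (-1.60 ± 0.39, adjusted p = 0.0075). Tnfsf10, the death ligand TRAIL, rose (3.53 ± 0.59, adjusted p = 0.0002), as did Mt1, a metallothionein (1.68 ± 0.38, adjusted p = 0.0036).

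Among the largest rises outside these lists was Pik3r3. Pik3r3, a regulatory subunit of phosphoinositide 3-kinase, was at 11.50, 11.79 and 11.22 in host cells, against 6.03, 6.03, 6.20 and 5.98 in homeostatic cells (5.44 ± 0.70, adjusted p = 1.1e-05). Mme, the peptidase neprilysin, was at 11.94, 12.21 and 12.17 in host cells, against 7.71, 6.90, 6.56 and 6.79 in homeostatic cells (5.12 ± 0.73, adjusted p = 3.6e-05). Tspan12, a tetraspanin, differed by 5.12 ± 0.71, adjusted p = 2.6e-05, and Nfib, a transcription factor, by 4.96 ± 0.75, adjusted p = 7.6e-05. Fabp3, a fatty acid-binding protein, had 2 probesets, with differences of 4.67 and 4.55. Scel, a protein of the cell envelope, was at 10.66, 10.65 and 10.91 in host cells, against 6.36, 6.38, 6.13 and 6.36 in homeostatic cells (4.43 ± 0.59, adjusted p = 1.6e-05). Pik3r3 and Scel were dim on every homeostatic array and bright on every host array.

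Further lists were mixed or small in their changes, where 6.27% of all genes rose and 5.21% fell. Of 19 integrin and adhesion genes 8 fell, among them Itgb2, the common chain of the beta-2 integrins (-2.30 ± 0.33, adjusted p = 4.8e-05), and Selplg, a ligand of selectins (-2.06 ± 0.39, adjusted p = 0.00087). Of 15 lysosomal protease genes 6 fell, including cathepsin C, Ctsc (-2.90 ± 0.54, adjusted p = 0.00067), and 1 rose. Of 24 immediate early and stress genes, which respond to tissue handling, 5 fell and 2 rose. The heat shock protein Hsph1 differed by 1.60 ± 0.37, adjusted p = 0.0047. Of 18 lipid handling genes 5 fell, such as Ch25h, which makes the oxysterol that attracts immune cells after further conversion (-3.61 ± 0.44, adjusted p = 5.1e-06), and 2 rose. Of 15 genes of inflammatory monocyte-derived cells 4 fell, such as Il1b, and 2 rose, such as Thbs1.

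The same arrays were then compared after the mean of the 26 leukocyte-wide genes was subtracted from each, which asks what fell by more than general leukocyte transcripts did. On this scale 95.5% of genes passed, and 13589 of 14346 were higher (94.7%), so its higher calls carry little information. Lower were 108 genes (0.753%), all of which had also passed as lower without scaling. Of the resident macrophage genes 7 of 20 were lower on this scale and 9 higher (median 0.28), of the complement genes 4 of 16 lower and 10 higher (median 2.35), and of the MHC class II genes 4 of 12 lower and 2 higher (median 0.23). The median of all genes was 2.67, and of the leukocyte-wide genes themselves 5 of 26 were lower and 7 higher (median -0.02). Relative to leukocyte-wide genes, Mrc1 differed by -2.87 ± 0.45, adjusted p = 1.6e-06, C3ar1 by -2.84 ± 0.37, adjusted p = 3.5e-07 and Mmp12 by -3.06 ± 0.45, adjusted p = 6.6e-07. Cd86 (-3.11 ± 0.42, adjusted p = 4.3e-07), Ccr2 (-2.23 ± 0.37, adjusted p = 2.8e-06) and Cd74 (-1.43 ± 0.31, adjusted p = 0.00012) were lower too. In contrast Csf1r (-0.39 ± 0.31, adjusted p = 0.22), Itgax (-0.84 ± 0.48, adjusted p = 0.099), H2-Eb1 (-0.06 ± 0.30, adjusted p = 0.84) and Cadm1, an adhesion molecule of type 1 dendritic cells (0.33 ± 0.37, adjusted p = 0.38), did not pass. Genes that were dim in homeostatic cells have little room to fall on this scale.

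How far the host difference was particular to the medulla was tested by an interaction, the host minus homeostatic difference in the medulla minus that in the cortex. In the cortex alone 594 genes passed (4.14%), 288 higher (2.01%) and 306 lower (2.13%). The interaction passed for 129 genes (0.899%), 72 higher in the medulla (0.502%) and 57 lower (0.397%). All 72 had also passed as a difference within the medulla, and 2 of them within the cortex. Of the 57, 32 had passed within the medulla and 29 within the cortex, 5 of them in both. Without host cortex replicate 2 the interaction passed for 85 genes, 51 higher and 34 lower. The balance of directions turned without host cortex replicate 1 (52 higher and 90 lower) and without host cortex replicate 3 (79 higher and 108 lower), and was 112 higher and 46 lower without host medulla replicate 3. Medulla and cortex came from the same mice. With mouse as a random block 183 genes passed, 95 higher and 88 lower, and with mouse as a fixed block 84 genes, 41 higher and 43 lower. No resident macrophage gene passed the interaction, and the list had nearly the same median in both regions (-2.32 in the medulla and -2.34 in the cortex). The leukocyte-wide medians were -2.61 and -0.90. The macrophage list averaged 8.30 ± 0.14 in host medulla and 8.14 ± 0.19 in host cortex (SD, n = 3 each). Both lie near the array medians, so a regional difference can be understated. Mrc1 differed by -5.47 ± 0.35 in the medulla and -4.90 ± 0.35 in the cortex, and Adgre1 by -5.39 ± 0.41 and -5.62 ± 0.41.

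Of 26 leukocyte-wide genes, 3 were lower in the medulla by the interaction, Lcp1 (-3.42 ± 0.35, adjusted p = 6.4e-06), Cd52 (-3.83 ± 0.64, adjusted p = 0.0025) and Laptm5 (-3.34 ± 0.70, adjusted p = 0.018). Lcp1, the actin bundler plastin 2, was at 8.97 ± 0.43 in host medulla and 13.14 ± 0.04 in homeostatic medulla, and at 12.42 ± 0.40 in host cortex and 13.18 ± 0.05 in homeostatic cortex (SD, n = 3 and 4). The call of Laptm5 was lost without host cortex replicate 2 or host medulla replicate 2 (adjusted p up to 0.063). It was also lost with mouse as a fixed block (adjusted p = 0.063), but kept with mouse as a random block. The list mean averaged 8.68 ± 0.49 in host medulla and 10.13 ± 0.84 in host cortex (SD, n = 3 each).

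The lowest interactions belonged to single genes. Gatm differed by -5.83 ± 0.31 in the medulla and 0.08 ± 0.31 in the cortex, interaction -5.91 ± 0.44, adjusted p = 2.6e-08. Kmo differed by -4.36 ± 0.52 in the medulla and 1.07 ± 0.52 in the cortex, interaction -5.43 ± 0.73, adjusted p = 0.00026. Cxcl9, a chemokine that attracts activated T cells, was at 7.00 ± 0.14 in host medulla and 10.88 ± 0.03 in homeostatic medulla. In the cortex it was at 10.57 ± 0.84 in host cells and 10.17 ± 0.46 in homeostatic cells, so the interaction passed (-4.28 ± 0.76, adjusted p = 0.0046). Fabp7, a fatty acid-binding protein, was the reverse case, dim in host medulla at 6.86 ± 0.19 and in homeostatic medulla at 7.14 ± 0.13. It reached 11.83 ± 0.09 in host cortex, against 6.92 ± 0.14 in homeostatic cortex (interaction -5.18 ± 0.34, adjusted p = 4.6e-09). Cyp4a14, a fatty acid hydroxylase of the proximal tubule, was at 6.88 ± 0.21 in host medulla and 6.82 ± 0.17 in homeostatic medulla, and at 11.11 ± 1.21 in host cortex and 6.88 ± 0.06 in homeostatic cortex (interaction -4.17 ± 0.61, adjusted p = 0.00051).

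Higher in the medulla by the interaction were 4 of 9 thin limb genes and 3 of 18 epithelium-wide genes. Ranbp3l, a nuclear export factor, differed by 5.19 ± 0.55 in the medulla and -0.28 ± 0.55 in the cortex (5.47 ± 0.78, adjusted p = 0.00039). Bst1 differed by 4.40 ± 0.57 in the medulla and -0.85 ± 0.57 in the cortex (5.24 ± 0.81, adjusted p = 0.0009). Npy, neuropeptide Y, was at 12.32, 12.18 and 12.81 in host medulla, against 7.96, 8.27, 8.10 and 8.19 in homeostatic medulla, and did not pass in the cortex (-0.19 ± 0.45, adjusted p = 0.97), with interaction 4.50 ± 0.64, adjusted p = 0.00039. Scin, the actin-severing protein scinderin, Scel and the glycolytic Pfkl gave interactions of 3.98 ± 0.58, adjusted p = 0.00048, 4.43 ± 0.83, adjusted p = 0.0085 and 1.86 ± 0.28, adjusted p = 0.00068. The interaction of Pfkl did not pass with mouse as a fixed block (adjusted p = 0.099), but passed with mouse as a random block.

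**Figure D4:**
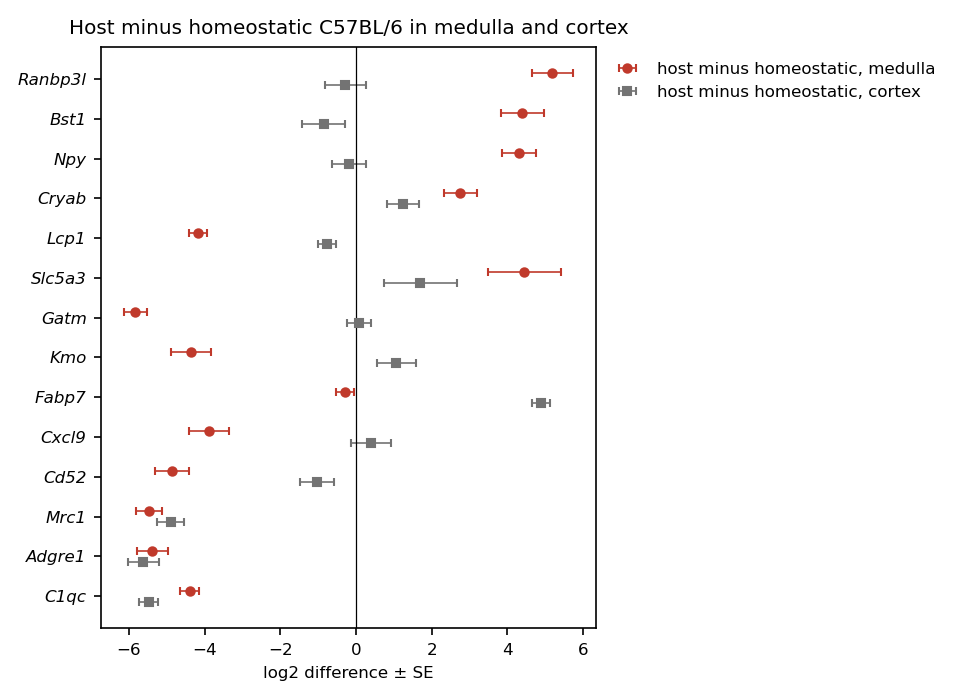
Host minus homeostatic C57BL/6 difference with SE in medulla (red circles) and cortex (grey squares) for 14 genes. Ranbp3l, Bst1 and Npy are well above 0 in the medulla only, Gatm and Kmo are well below 0 in the medulla only, Fabp7 is well above 0 in the cortex only, and Mrc1, Adgre1 and C1qc are well below 0 in both.

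A second interaction set the host difference against that of the donor cells of the same grafts, whose reference is homeostatic BALB/c medulla. For donor medulla 456 genes passed against that reference (3.18%), 248 higher (1.73%) and 208 lower (1.45%). The interaction passed for 163 genes (1.14%), 55 higher in host cells (0.383%) and 108 lower (0.753%). It passed for 90 genes without donor medulla replicate 3, for 104 without homeostatic C57BL/6 medulla replicate 1, for 98 without replicate 4 of that group, and for 133 without the BALB/c array that stood apart. The excess of lower genes was not kept in every setting, with 75 higher and 76 lower without host medulla replicate 3, 91 and 104 without host medulla replicate 2, 114 and 113 with no filter on dim genes, and 180 and 170 with array weights. With mouse as a random block the interaction passed for 219 genes, 80 higher and 139 lower. With the replicate number as a block it passed for 51 genes, although that number joins different mice in the homeostatic groups. Resident macrophage genes were lower by it in 8 of 20, complement genes in 4 of 16, MHC class II genes in 4 of 12 and leukocyte-wide genes in 4 of 26. The leukocyte-wide list had a median interaction of -1.39, against -1.70 for the macrophage list and -1.59 for the MHC class II list (median of all genes 0.19), and averaged 8.68 ± 0.49 in host medulla and 9.80 ± 0.58 in donor medulla (SD, n = 3 each). Its part in the other lists was not tested. The 2 references were level for the macrophage list, at 10.47 in homeostatic C57BL/6 and 10.48 in homeostatic BALB/c medulla. They were not level for the leukocyte-wide list (11.27 and 10.80), the MHC class II list (11.60 and 10.86) or the dendritic cell list (9.91 and 8.27). The dendritic cell list averaged 7.90 in host and 7.71 in donor medulla. The part of the references in these interactions was not tested. Mrc1 differed by -5.47 ± 0.35 in host cells and -0.50 ± 0.35 in donor cells (-4.96 ± 0.50, adjusted p = 3.4e-06). C3ar1 differed by -5.44 ± 0.29 in host cells and -0.52 ± 0.29 in donor cells (-4.91 ± 0.41, adjusted p = 2.5e-07), and C1qc by -4.40 ± 0.25 and -0.16 ± 0.25 (-4.24 ± 0.35, adjusted p = 2.5e-07). These 3 transcripts were near their homeostatic level in donor cells of the same grafts and far below it in host cells.

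Also lower by this interaction were C5ar1 (-5.10 ± 0.65, adjusted p = 0.00011), Itgam (-4.04 ± 0.42, adjusted p = 5.4e-06), Adgre1 (-4.43 ± 0.57, adjusted p = 0.00013) and Cx3cr1 (-3.29 ± 0.42, adjusted p = 0.00011). Mmp12 was lower in both origins, at -5.65 ± 0.45 in host cells and -2.42 ± 0.45 in donor cells (-3.23 ± 0.64, adjusted p = 0.01), whereas the interaction of Mmp13 did not pass (-2.09 ± 0.57, adjusted p = 0.078). H2-Eb1 differed by -2.66 ± 0.18 in host cells and -1.07 ± 0.18 in donor cells (-1.59 ± 0.26, adjusted p = 0.0019). The interaction of Mmp12 did not pass with the 4 groups compared alone (adjusted p by limma = 0.057) or with the replicate number as a block (0.084), and that of H2-Eb1 did not pass with the block (0.078). Itgax did not pass (-2.39 ± 0.79, adjusted p = 0.14), nor did Ccr2 (-2.45 ± 0.67, adjusted p = 0.077).

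Of 9 thin limb genes none passed this interaction and of 18 epithelium-wide genes 1 was higher, against 0.383% of all genes. The median interaction was 1.14 for the thin limb list, 0.90 for the loop of Henle and the principal cell lists and 0.81 for the epithelium-wide list, against 0.19 for all genes. Lcn2 differed by 3.61 ± 0.32 in host cells and 3.46 ± 0.32 in donor cells, with an interaction of 0.16 ± 0.46. The epithelium-wide list averaged 10.12 ± 0.21 in host medulla and 9.83 ± 0.15 in donor medulla (SD, n = 3 each). Both homeostatic references were lower, at 7.95 ± 0.13 for C57BL/6 and 8.57 ± 0.34 for BALB/c (SD, n = 4 each). The thin limb list averaged 10.48 in host and 10.11 in donor medulla, against 7.83 and 8.64 in these references. The BALB/c reference was also the higher one for the loop of Henle and principal cell lists. Its part in these interactions was not tested. Higher in host cells were Sim2, a transcription factor (3.21 ± 0.53, adjusted p = 0.0023), Lrrc1, a scaffold protein of epithelial junctions (2.59 ± 0.45, adjusted p = 0.004), and Defb42, a defensin (3.24 ± 0.62, adjusted p = 0.009). All 3 calls were lost with the 4 groups compared alone and with the replicate number as a block, where the adjusted p by limma was up to 0.11 for Sim2, 0.10 for Lrrc1 and 0.24 for Defb42. Defb42 was at 10.11, 9.37 and 12.54 in host medulla, against 6.60, 6.39, 6.28 and 6.44 in homeostatic medulla, and differed by 1.00 ± 0.44 in donor medulla.

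**Figure D5:**
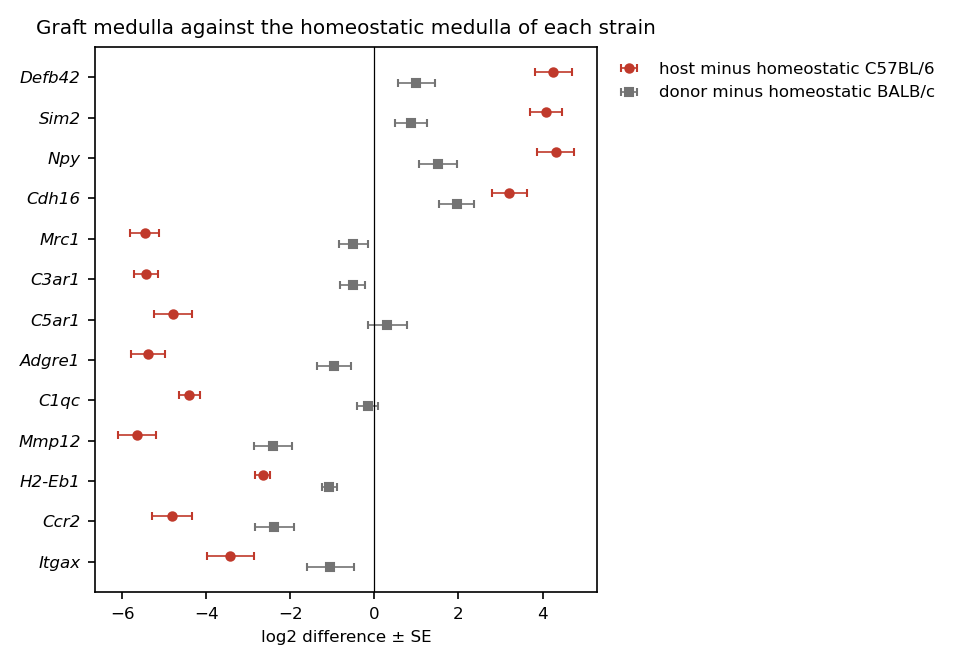
Difference with SE of host cells from homeostatic C57BL/6 medulla (red circles) and of donor cells of the same grafts from homeostatic BALB/c medulla (grey squares) for 13 genes. Mrc1, C3ar1, C5ar1, Adgre1 and C1qc are far below 0 in host cells and within about 1 of 0 in donor cells, and Cdh16 is above 0 in both.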

How the data were processed

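RNA of sorted cells was isolated, amplified and hybridised to 1 array a sample, per the labels' protocols. The deposited log2 values of 22549 probesets had been background-corrected, normalised and summarised by RMA with oligo, per the submitters' processing notes. Versions and the genome build were not stated there. A gene with several probesets was represented by that of highest mean, and 14346 genes above the 40th percentile in at least 3 of 28 arrays were tested. limma 3.58.1 in R 4.3.3 fitted 8 group means over all 28 arrays, with 20 residual degrees of freedom, 2-sided tests and Benjamini-Hochberg adjustment over all genes. The fit was tested on simulated data. The number of arrays limits the precision. Genes were named from the sort markers, the 20 highest and 20 lowest differences that passed without overlap of the groups (8 and 8 for the other comparisons), and, per list, up to 5 members that rose, 5 that fell and 3 bright ones that did not pass. Members and lists were chosen with earlier results of these data known. Medulla, cortex and donor arrays of a mouse share its number, and the deviations of the same mouse correlated at 0.054 to 0.277 between host medulla and its cortex or donor arrays. Alternatives changed the scaling, the filter, the probeset rule, the variance model, the block and the arrays included.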

Additional observations from a re-analysis of the deposited data

Results flagged for a closer look

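In 11 of 179 groups of 4 homeostatic C57BL/6 medulla arrays, 1 array lay far from the other 3 (by Dixon's critical value), which chance alone gives in about 1 of 20 groups. Replicate 1 was the distant array for Alox5ap at 11.45, Cd74 at 12.89, Gpr65 at 12.62, H2-DMa at 11.93, Nlrp3 at 8.18 and the resident macrophage list mean at 10.58. It was replicate 2 for H2-Ab1 at 13.14, replicate 3 for Scel at 6.13, and replicate 4 for C5ar1 at 10.98, Cd81 at 11.69 and Tap1 at 9.69. For Cd74, H2-Ab1 and Scel the whole group spans a narrow range, as the values given above show.

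The host minus homeostatic difference was larger or smaller in the medulla than in the cortex for 29 of the named genes, by limma's interaction. Higher in the medulla were Ranbp3l (5.47), Bst1 (5.24), Npy (4.50), Defb42 (4.44), Scel (4.43), Pik3r3 (4.42), Psca (4.36), Scin (3.98), Sim2 (3.87), Aqp1 (2.81), Lrrc1 (2.65), Npnt (1.92), Pfkl (1.86) and Slc14a2 (1.41). Lower were Gatm (-5.91), Kmo (-5.43), Fabp7 (-5.18), Cxcl9 (-4.28), Cyp4a14 (-4.17), Cd52 (-3.83), Cd36 (-3.72), Lcp1 (-3.42), Laptm5 (-3.34), Ifnar2 (-3.06), Ccr2 (-3.04), Gpr65 (-2.95), Ctss (-2.31), Selplg (-2.29) and Cd74 (-2.16). With 1 array left out, the calls of Aqp1 and Selplg were lost in 12 cases each, Gpr65 in 11 and Pik3r3 in 8, which is most cases. Ccr2 was lost in 4, Cd74 and Ctss in 3 each, Laptm5 in 2 and Psca in 1 (highest adjusted p by limma = 0.15, for Gpr65). With mouse as a fixed block 17 of the 29 passed, and with mouse as a random block all 29.

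The host difference from its homeostatic strain differed from the donor difference in the medulla for 32 named genes. The 2 homeostatic references were not level for some lists, as given above, among them the dendritic cell list that holds Kmo. Higher in host cells were Defb42 (3.24), Sim2 (3.21), Npy (2.79), Lrrc1 (2.59) and Pfkl (1.54). Lower were C5ar1 (-5.10), Mrc1 (-4.96), C3ar1 (-4.91), Klra2 (-4.88), Gatm (-4.87), Gpr65 (-4.51), Clec4a3 (-4.50), Adgre1 (-4.43), C1qc (-4.24), Ms4a7 (-4.10), Cd52 (-4.04), Itgam (-4.04) and Lilr4b (-4.01). Smaller differences were those of Lcp1 (-3.62), Laptm5 (-3.58), Cx3cr1 (-3.29), Il10ra (-3.25), Kmo (-3.24), Mmp12 (-3.23), Cd86 (-3.14), Ctss (-3.11), Ifnar2 (-2.84), H2-Ab1 (-2.60), Cd74 (-2.44), Csf1r (-1.96), H2-Eb1 (-1.59) and Apoe (-1.45). When 1 array was left out, the calls of Cd86, Clec4a3, Kmo, Npy and H2-Ab1 were lost in 13, 12, 8, 7 and 4 cases. Cd86 and Clec4a3 were thus lost with most arrays left out (highest adjusted p by limma = 0.12, for Cd86). With the 4 groups compared alone 21 of the 32 passed, with the replicate number as a block 18, and with mouse as a random block all 32.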

How the results depend on the processing

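The replicate number as a block lowered the count of host against homeostatic medulla to 675, 304 higher and 371 lower, although equal numbers of these groups are different mice and their deviations correlated at -0.023 to 0.020. With that block 90 of 114 named genes passed, with mouse as a random block 114, and with an array left out 112 to 114. The other scaling, filter, probeset and variance settings gave 1439 to 2330 genes, and leaving out 1 array 1206 to 1482. The interaction with the cortex passed for 82 genes under a stricter filter, 378 with array weights and 63 with the replicate number as a block. It passed for 183 with mouse as a random block, 84 with mouse as a fixed block (added after seeing the data) and 85 to 187 without 1 array. The interaction with donor cells passed for 350 genes with array weights, 96 with the 4 groups compared alone and 51 with the replicate block. It passed for 219 with mouse as a random block and 90 to 201 without 1 array. The cause of these moves was not tested. The 108 genes lower than leukocyte-wide genes ranged from 90 to 135. None of the named genes that passed the host comparison or either interaction changed direction in it under these alternatives. Single genes of the comparison scaled to leukocyte-wide genes were not followed under them. Signals near the array medians limit how low a fall can be measured, and 3 or 4 arrays a group limit every error given.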
